A study of Mus musculus with 10 samples.

Results

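The genes described here encode the apparatus with which hair cells convert mechanical stimuli into electrical signals. They are the 10 genes Tmc1, Tmc2, Tmie, Lhfpl5, Pcdh15, Cdh23, Cib2, Tomt, Loxhd1 and Clrn1, taken by gene symbol from the 48709 genes of the deposited tables, and every one of them was found. The tables come from 10 RNA-sequencing libraries of supporting cells, which were isolated by fluorescence-activated sorting from utricles, the gravity-sensing vestibular organs of the inner ear. The utricles were explanted from Lfng-EGFP mice at postnatal day 21, in which a fluorescent reporter under control of the Lfng gene marks supporting cells. They were cultured for 5 days with 10 μM TRULI, an inhibitor of the Lats kinases of the Hippo pathway, or with its vehicle, 0.1% DMSO, and some were kept for another 5 days after withdrawal of the compound. The groups are termed DMSO_d5, TRULI_d5, DMSO_d10 and TRULI_d10, with 3, 3, 2 and 2 libraries. All libraries thus share the reporter line, the age, the explant culture and the sort, and nothing in the labels says whether libraries of a group came from separate animals, so the tests below measure the spread between libraries only.

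For 4 of the 10 libraries the sample label and the name of the deposited table give different conditions. The tables named DMSO_d10 replicates 1 and 2 belong to samples labelled TRULI_d5 replicates 1 and 2. Those named TRULI_d5 replicates 2 and 3 belong to samples labelled DMSO_d10 replicates 1 and 2. The table named TRULI_d5 replicate 1 is that of the sample labelled TRULI_d5 replicate 3, whereas DMSO_d5 and TRULI_d10 are the same in both. Each comparison was therefore made under both groupings, and single libraries are called here by their deposited name and number. Library totals ran from 2463872 to 6255149 counts, so that 3 counts corresponded to between 0.469 and 1.20 CPM, the counts scaled to a common library size. Between 13.0% and 26.4% of the counts fell on mt-Rnr2, a ribosomal RNA of mitochondria, in the 6 libraries named for 5 days, against 1.45% to 2.53% in the 4 named for day 10. Under the labels this divide runs through the TRULI_d5 group and, after withdrawal, coincides with treatment, from which it cannot then be told apart.

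In a hair cell, the stereocilia of the hair bundle are joined by tip links, and tension in a tip link opens the transduction channel at its lower end. The tip link is built from 2 cadherins, protocadherin 15 (Pcdh15) below and cadherin 23 (Cdh23) above. Tmc1 and Tmc2 form the pore of the channel, Tmie, Lhfpl5 and Cib2 belong to the channel complex, and Tomt is required for the Tmc proteins to reach the bundle. Loxhd1 and Clrn1 encode further hair-bundle proteins whose loss causes deafness, the latter in a form of Usher syndrome. Supporting cells surround the hair cells and carry no hair bundle.

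Of the 10 members, 8 have a promoter window in RefSeq, from 250 bases before to 50 bases after an annotated start of transcription. Tmc2 and Loxhd1 have none there. The windows of 4 members are shown. Lhfpl5 and Clrn1 are among the 3 genes whose levels followed the other members most closely from library to library, whereas Tmc1 and Pcdh15 followed them less closely or not at all. Sequences are given 5′ to 3′ on the strand of the gene, in the RefSeq assembly GRCm38.p6, and capitals mark the E-box CAGCTG.

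Lhfpl5, chr17:28575469-28575768, plus strand: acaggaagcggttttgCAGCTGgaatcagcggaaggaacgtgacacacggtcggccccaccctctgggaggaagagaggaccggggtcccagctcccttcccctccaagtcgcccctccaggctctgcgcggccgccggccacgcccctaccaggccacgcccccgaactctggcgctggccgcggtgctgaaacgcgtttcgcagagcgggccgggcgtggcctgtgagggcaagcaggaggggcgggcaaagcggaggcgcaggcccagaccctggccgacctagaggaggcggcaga
Clrn1, chr3:58885163-58885462, minus strand: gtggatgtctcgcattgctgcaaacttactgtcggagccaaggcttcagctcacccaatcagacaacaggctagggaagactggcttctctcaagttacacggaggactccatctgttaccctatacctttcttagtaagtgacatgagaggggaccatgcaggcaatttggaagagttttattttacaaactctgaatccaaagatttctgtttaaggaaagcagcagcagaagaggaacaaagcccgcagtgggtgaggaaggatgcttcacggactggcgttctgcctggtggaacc
Tmc1, chr19:20954153-20954452, minus strand: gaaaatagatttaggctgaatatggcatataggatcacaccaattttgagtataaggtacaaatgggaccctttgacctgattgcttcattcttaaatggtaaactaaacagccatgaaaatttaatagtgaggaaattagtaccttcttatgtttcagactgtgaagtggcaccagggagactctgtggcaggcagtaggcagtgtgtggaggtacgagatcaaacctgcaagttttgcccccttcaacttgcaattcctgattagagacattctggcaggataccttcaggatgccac
Pcdh15, chr10:73821617-73821916, plus strand: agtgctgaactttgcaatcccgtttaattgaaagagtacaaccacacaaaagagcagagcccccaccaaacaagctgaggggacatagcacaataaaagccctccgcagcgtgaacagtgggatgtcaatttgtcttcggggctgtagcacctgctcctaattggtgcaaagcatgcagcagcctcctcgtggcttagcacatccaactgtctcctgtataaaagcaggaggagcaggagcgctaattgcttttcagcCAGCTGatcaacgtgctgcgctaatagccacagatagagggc

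The E-box CAGCTG, which reads the same on both strands, lay once in the Lhfpl5 window and once in the Pcdh15 window, there 8 bases past the start, and did not occur in the Clrn1 and Tmc1 windows. It also lay once in the Tmie window and once in the second of the 2 Tomt windows. Of 32817 mouse promoter windows of the same length, 16.3% held it. The motif GGAATG, bound by the Tead partners of Yap, was searched on both strands and was found in the Tmie window and in the second Tomt window, against 14.7% of all windows. Among the windows of these 8 members the TATA box TATAAA lay only in that of Pcdh15, 33 bases before the start, against 13.6% of all windows. The GC box GGGCGG lay in the Tmie, Lhfpl5 and Cib2 windows, with 3, 1 and 4 matches, against 35.6% of all windows. The Pcdh15 window lies at a start well inside the gene, which spans bases 73099342-74649737, and any other start of it was not searched. The motifs were chosen after the expression values were known, and a match is a run of letters, not a binding site.

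Pcdh15 and Clrn1 held the most counts of the members and Tmc2 hardly any. Over the 10 libraries the median level was 38.1 CPM for Pcdh15, 25.5 CPM for Clrn1 and 20.6 CPM for Tmc1. The medians of the other detected members lay between 3.79 CPM for Tomt and 11 CPM for Cdh23. Per kilobase of effective transcript length the order of the medians was Clrn1 with 9.39, Pcdh15 with 5.91, Cib2 with 5.71 and Tmc1 with 5.36 CPM per kilobase, and Cdh23, a long transcript, came to 2.51 CPM per kilobase. The medians of the first 4 lie within each other's range over the libraries. The heat map of CPM by library shows how unevenly the members were spread over the libraries.

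**Figure D1:**
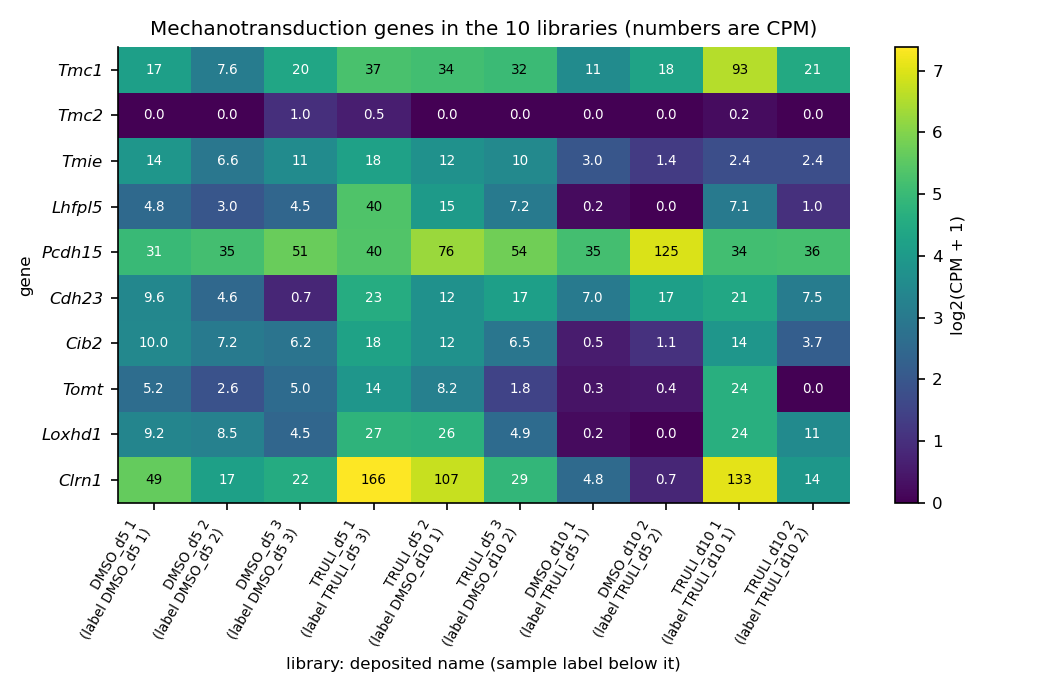
Levels of the 10 members in each library, with genes in rows and libraries in columns, ordered by deposited name and with the sample label beneath. Colour gives log2(CPM + 1) and the numbers give CPM; the columns named TRULI_d5 1, TRULI_d5 2 and TRULI_d10 1 are the brightest for Clrn1, at 166, 107 and 133 CPM.

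Tmc1, a pore subunit of the channel, spans bases 20783458-20954202 of chromosome 19 (GRCm38, minus strand, as are the positions below unless stated) and was present in every library. It held 42, 23 and 80 counts in the DMSO_d5 libraries and 141, 137 and 143 in those named TRULI_d5. After withdrawal it held 70 and 51 counts in the libraries named DMSO_d10 and 536 and 105 in TRULI_d10. In CPM the 3 libraries named TRULI_d5 were alike, from 32.0 to 37.1, and all lay above the DMSO_d5 range of 7.56 to 19.8, while the 2 TRULI_d10 libraries differed widely, at 93.2 and 21.4. By label TRULI_d5 and DMSO_d5 overlap, because the libraries with 10.9 and 18.3 CPM then count as treated. The share of all genes whose groups lie apart is not given, so nothing is read from such separations here or below. Tmc2, the other pore subunit (chromosome 2, 130195194-130264445, plus strand), held 4 counts in DMSO_d5 replicate 3, 2 in the library named TRULI_d5 replicate 1, 1 in TRULI_d10 replicate 1 and 0 in the other 7, so that no difference in it was detectable at this depth and it passed the filter on low counts in no comparison.

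Among the accessory subunits of the channel complex, Lhfpl5 varied most between libraries. Lhfpl5, which links Pcdh15 to the channel (chromosome 17, 28575641-28585679, plus strand), held 12, 9 and 18 counts in DMSO_d5 and 152, 62 and 32 in the libraries named TRULI_d5. It held 1 and 0 counts in the libraries named DMSO_d10 and 41 and 5 in TRULI_d10. By name every TRULI library lay above every DMSO library of its time point, in CPM from 7.17 to 39.9 against 2.96 to 4.79 at 5 days. By label the reverse held after withdrawal, where the TRULI_d10 libraries, at 7.13 and 1.02 CPM, lay below the libraries labelled DMSO_d10, at 15.4 and 7.17 CPM.

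Cib2, a calcium-binding protein that associates with the Tmc proteins (chromosome 9, 54544794-54560218), held 25, 22 and 25 counts in DMSO_d5 and 69, 50 and 29 in the libraries named TRULI_d5. It held 3 and 3 counts in the libraries named DMSO_d10, against 79 and 18 in TRULI_d10. The groups at 5 days overlapped by either grouping, and those after withdrawal were separate by name only. Tmie, a membrane protein needed for channel function (chromosome 9, 110865711-110880113), held 34, 20 and 44 counts in DMSO_d5 and 67, 50 and 45 in the libraries named TRULI_d5. It held 19 and 4 counts in the libraries named DMSO_d10 and 14 and 12 in TRULI_d10. The level of Tmie thus went with the day in the deposited name, from 6.57 to 17.6 CPM in the 6 libraries named for 5 days and from 1.44 to 2.97 CPM in the 4 named for day 10, the same division that mt-Rnr2 makes.

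Tomt, the methyltransferase-like protein involved in Tmc transport, was the scarcest member after Tmc2. Its estimated counts were 13.4, 8.0 and 20.1 in DMSO_d5 and 51.7, 33.0 and 7.6 in the libraries named TRULI_d5. They were 1.9 and 1.0 in the libraries named DMSO_d10 and 137.8 and 0 in TRULI_d10. The 2 TRULI_d10 libraries were therefore the highest and the lowest of all 10, and in no grouping were the treated and control libraries separate. Tomt lies on chromosome 7 at 101898370-101906359 and shares 1981 exonic bases with Anapc15 on the opposite strand. Tmie likewise shares 244 exonic bases with Als2cl and Cib2 shares 227 with Sh2d7, which was listed at 0 in every library. Whether counting used the strand is not given in the sources used here, so reads from the shared stretches cannot be told apart.

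The tip-link cadherins followed the other members least from library to library. Pcdh15 (chromosome 10, 73099342-74649737, plus strand) held 77, 107 and 205 counts in DMSO_d5 and 154, 304 and 240 in the libraries named TRULI_d5. It held 223 and 348 counts in the libraries named DMSO_d10 and 197 and 176 in TRULI_d10, so that the libraries with almost no Lhfpl5 or Loxhd1 still held much Pcdh15. Its highest level, 125 CPM, was in the library named DMSO_d10 replicate 2, and the other 9 lay between 30.8 and 75.6 CPM. By label both TRULI_d10 libraries, at 34.3 and 35.8 CPM, lay below the 2 libraries labelled DMSO_d10. Cdh23 (chromosome 10, 60302748-60696490) held 24, 14 and 3 counts in DMSO_d5 and 87, 50 and 75 in the libraries named TRULI_d5, with no overlap between these groups. It held 45 and 47 counts in the libraries named DMSO_d10 and 119 and 37 in TRULI_d10, which overlap in CPM.

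Clrn1 had the widest range of all members between libraries, and Loxhd1 was all but absent from 2 of them. Clrn1, which encodes clarin-1 (chromosome 3, 58844028-58885340), held 122, 53 and 90 counts in DMSO_d5 and 631, 429 and 128 in the libraries named TRULI_d5. It held 31 and 2 counts in the libraries named DMSO_d10 and 766 and 69 in TRULI_d10. Loxhd1, which encodes a protein of PLAT domains along the stereocilia, held 23, 26 and 18 counts in DMSO_d5 and 102, 103 and 22 in the libraries named TRULI_d5. It held 1 and 0 counts in the libraries named DMSO_d10 and 138 and 52 in TRULI_d10. For both genes the library named TRULI_d5 replicate 3 lay within the range of the DMSO_d5 libraries in CPM, and by name the TRULI_d10 libraries were above both DMSO_d10 libraries.

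**Figure D2:**
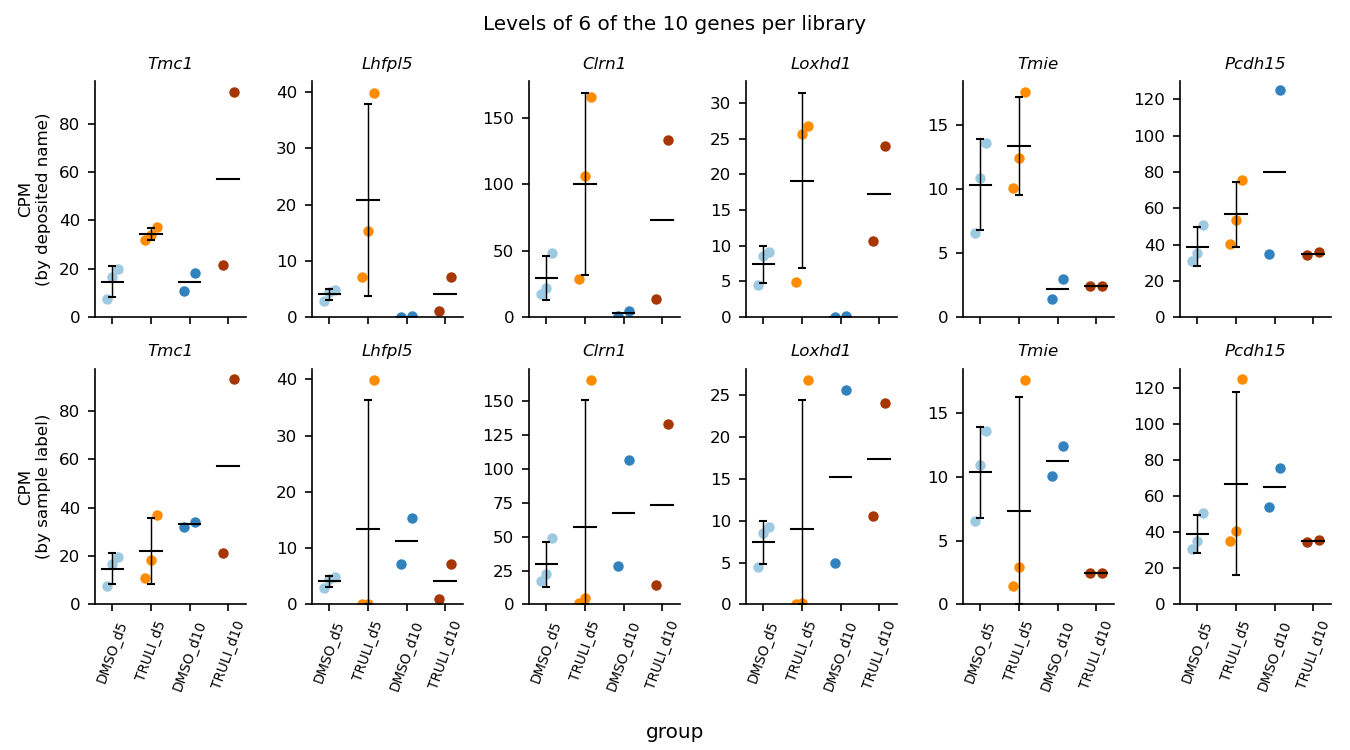
CPM of 6 members in each library, with groups taken from the deposited name (upper row) or the sample label (lower row); points are libraries, horizontal lines are means and bars are SD, drawn for groups of 3 only. For Lhfpl5 and Loxhd1 the 2 libraries near 0 CPM stand in DMSO_d10 by name and in TRULI_d5 by label.

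The comparison at 5 days asks which genes TRULI altered while it was present. Grouped by sample label, none of the members passed at an adjusted p under 0.05 with a log2 fold change beyond 1 by edgeR's quasi-likelihood test. Of the 10 members 9 passed the filter on low counts. Of these, 0 had an unadjusted p under 0.05, against 1515 of all 11071 genes tested. Over all 11071 genes tested, 0.00903% were called, a single gene. DESeq2 called none of the members either, and 2.3% of the genes tested. It gave no adjusted p for Lhfpl5, Loxhd1 and Clrn1, so that these could not be called there. The log2 fold changes of Lhfpl5 and Cdh23 were 1.73 (SE 1.57) and 1.69 (SE 0.84), and those of Tmie and Cib2 were negative, at -0.47 (SE 0.86) and -0.22 (SE 1.12). The library labelled TRULI_d5 replicate 3 decides these values. Without it Lhfpl5, Cib2, Tomt, Loxhd1 and Clrn1 were called lower with TRULI, but so were 923 of 11382 genes, 8.11%, and 1215 were called higher. Of these 5 members all but Clrn1 held at most 3 counts in either remaining treated library.

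Grouped by deposited name, all 9 members that passed the filter had a positive log2 fold change at 5 days, with a median of 1.24 against 0.0258 over all 11529 genes tested. None was called by edgeR, while 3.07% of all genes tested were. An unadjusted p under 0.05 was reached by 5 members and by 1887 of the 11529 genes. Lhfpl5 came to 2.36 (SE 0.60, edgeR adjusted p = 0.0615), Cdh23 to 1.88 (SE 0.65, edgeR adjusted p = 0.169) and Clrn1 to 1.80 (SE 0.56, edgeR adjusted p = 0.128). Loxhd1 came to 1.40 (SE 0.58, edgeR adjusted p = 0.258) and Tmc1 to 1.24 (SE 0.35, edgeR adjusted p = 0.0948). The values of Tomt, Cib2, Pcdh15 and Tmie were 0.89, 0.69, 0.56 and 0.39, each with an SE between 0.29 and 0.66.

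Under the deposited names at 5 days, the deviations of same-numbered libraries correlated at 0.332, 0.156 and 0.269, although no label pairs these libraries. With the replicate number as a block, 4 members were called higher with TRULI by edgeR, and 4.1% of all genes tested were called higher in that fit. These were Clrn1 at 1.61 (SE 0.34, edgeR adjusted p = 0.0111), Lhfpl5 at 2.06 (SE 0.47, edgeR adjusted p = 0.0173), Tmc1 at 1.30 (SE 0.31, edgeR adjusted p = 0.0206) and Cdh23 at 2.10 (SE 0.53, edgeR adjusted p = 0.0294). DESeq2 without the block called the same 4, with 3.37% of all genes called higher. EdgeR without a filter on low counts called these 4 and Loxhd1, with 3.22% called higher. Without the library named TRULI_d5 replicate 3, edgeR called Lhfpl5 at 2.77, Clrn1 at 2.24 and Loxhd1 at 1.86, with 2.13% of all genes called higher. In the libraries whose label and name give the same condition, 3 DMSO_d5 libraries and 1 TRULI_d5 library, Lhfpl5 at 3.29 and Clrn1 at 2.51 were called, with 0.777% of all genes called higher. In that fit the single treated library is taken to vary like the controls.

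**Figure D3:**
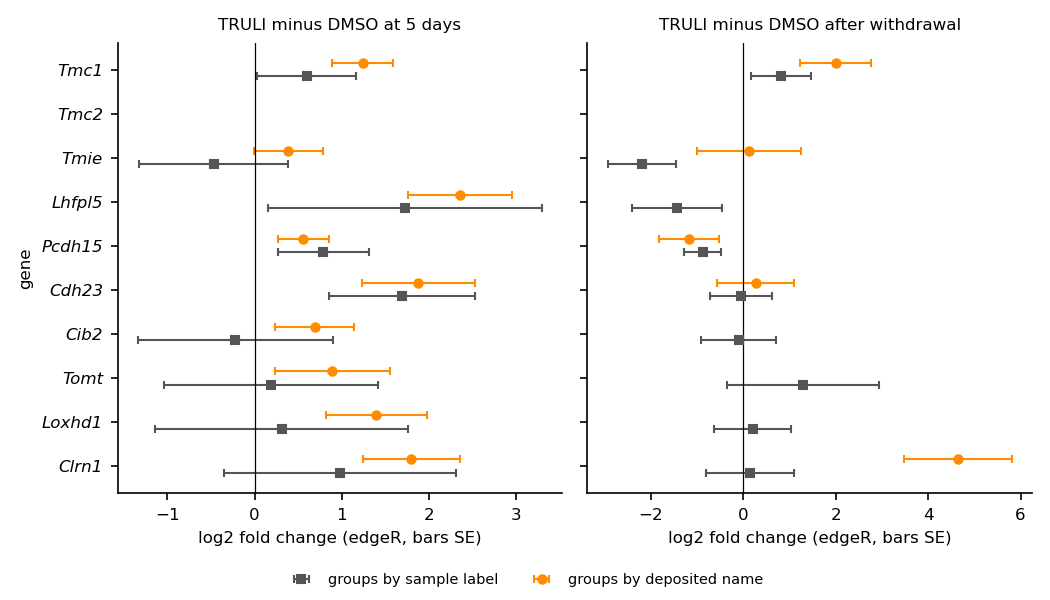
Log2 fold changes of the members, TRULI minus DMSO, at 5 days (left) and after withdrawal (right), by edgeR; squares are groups by sample label, circles are groups by deposited name, and bars are standard errors. A gene without a symbol did not pass the filter on low counts. Loxhd1 and Cib2 after withdrawal by name are left out because their controls held at most 3 counts in each library. By name all 9 tested members lie right of 0 at 5 days, and Clrn1 stands at 4.64 after withdrawal.

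After withdrawal the comparison asks which differences were present once the compound had been absent for 5 days. Grouped by label, 9 members were tested and none was called by edgeR or DESeq2, whereas edgeR called 2.07% and DESeq2 12% of 12242 genes. An unadjusted p under 0.05 was reached by 3001 of the 12242 genes and by 1 member. This member was Tmie, with a log2 fold change of -2.19 (SE 0.74, edgeR adjusted p = 0.129). Lhfpl5 came to -1.43 (SE 0.98), Pcdh15 to -0.87 (SE 0.40) and Tomt to 1.30 (SE 1.64), and the other 5 lay between -0.10 and 0.81. The 2 TRULI_d10 libraries drew these values apart. Without TRULI_d10 replicate 1, Lhfpl5 (-3.45), Clrn1 (-2.28) and Tomt, then listed at 0 with TRULI, were called lower, as were 12.8% of all genes tested. Without TRULI_d10 replicate 2, Tmc1 (1.49) and Tomt (2.26) were called higher, as were 9.98% of all genes tested.

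Grouped by name after withdrawal, 7 members passed the filter and Lhfpl5 and Tomt did not, along with Tmc2. No gene at all was called by edgeR, 0% of 11568, although 532 genes had an unadjusted p under 0.05, among them 4 members. These were Loxhd1, Clrn1, Cib2 and Tmc1, of which the first 3 passed the filter through the TRULI_d10 libraries, where they were high, so that nothing is read from their number. For Loxhd1 and Cib2, with at most 3 counts in each control library, a fitted fold change is no measure of size, and the counts and ratios below stand in its place. Clrn1 came to 4.64 (SE 1.17, edgeR adjusted p = 0.923) and Tmc1 to 2.00 (SE 0.77). Tmie and Cdh23 came to 0.13 (SE 1.13) and 0.27 (SE 0.84), and Pcdh15 to -1.18 (SE 0.65). DESeq2 placed Loxhd1 and Clrn1 past the threshold, and 0.363% of all genes tested higher with TRULI. EdgeR without a filter on low counts placed Loxhd1, Clrn1 and Tomt there, and 0.788% of all genes higher with TRULI. For Loxhd1 and Tomt these calls rest on controls near 0, and all are given as a description.

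Several of these ratios rest on controls with next to no counts. In summed counts, scaled for depth, the TRULI_d10 libraries held 163.5 times the Loxhd1 level of the libraries named DMSO_d10, with an exact 95% counting interval from 29.0 to 6490, since the controls held 1 count in all. The ratio was 13.9 for Cib2, with an interval from 6.16 to 38.8. It was 39.6 for Lhfpl5 (6.76 to 1597) and 39.6 for Tomt (13.3 to 194), the latter carried by 1 library of the pair. These intervals cover counting error only and not the spread between libraries. For the difference between the effects at the 2 times, edgeR called no member in either grouping and no gene in all, 0% of 12841 by label and 0% by name. At an unadjusted p under 0.05 that test had 874 genes by label and 1217 by name, among them 1 and 3 members. DESeq2 called no member, and 0.35% of all genes by label and 0.67% by name. Without a filter on low counts, edgeR called Loxhd1 and Clrn1 for this difference by name, with 0.885% of all genes called higher, and again the Loxhd1 controls after withdrawal held 1 count in all.

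The 3 libraries with the highest mean level of the members were those named TRULI_d5 replicates 1 and 2 and TRULI_d10 replicate 1. They were also the 3 with the highest summed level of other hair-cell genes. The summed level of 14 hair-cell markers was 564, 362 and 400 CPM in DMSO_d5 and 1176, 798 and 360 CPM in the libraries named TRULI_d5. It was 356 and 341 CPM in the libraries named DMSO_d10 and 1304 and 461 CPM in TRULI_d10. Myo6 alone held between 173 and 362 CPM, and Calb1 and Ocm were at or near 0 throughout. In the libraries named DMSO_d10, Myo6 made up most of the sum, at 314 of 356 and 302 of 341 CPM. The sum therefore says little of the other markers there. By name 11 of 11 tested markers had a positive log2 fold change at 5 days, where the median over all genes tested was 0.0258. Of these 1 was called, the actin-bundling protein Espn at 2.70 (SE 0.62, edgeR adjusted p = 0.0426). Of all genes tested, 2.05% were called higher in that fit. After withdrawal by name 10 of 10 were positive, with none called. Some of them, such as Calb2 with 3 counts in each control library, passed the filter through the TRULI_d10 libraries, where they were high. Nothing is therefore read from that number. By label 8 of 11 markers were positive at 5 days and 10 of 12 after withdrawal, with none called. Of all genes tested by label, 0.00903% and 2.07% were called at these times. In bulk RNA, fewer cells of a type and less RNA per cell cannot be told apart, and the part of hair cells left in the sort in the members' levels was not tested.

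**Figure D4:**
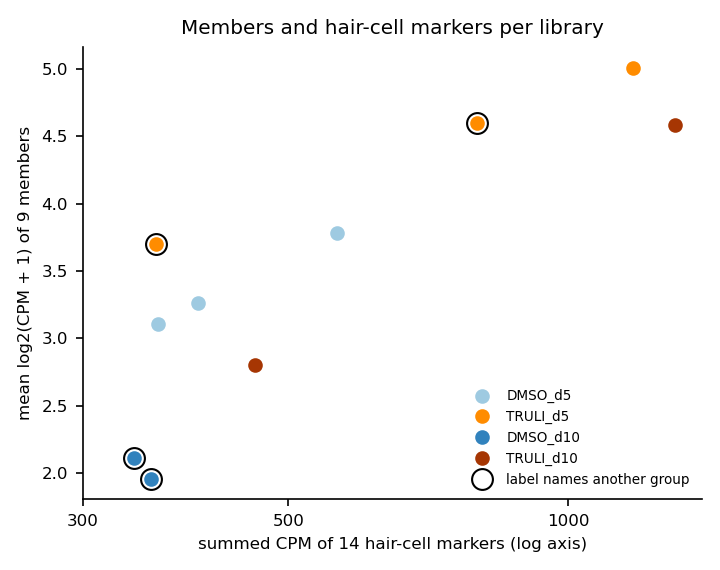
Mean log2(CPM + 1) of the 9 members with at least 10 counts against the summed CPM of 14 hair-cell markers (log axis), 1 point per library, coloured by the group in the deposited name and ringed where the sample label names another group. The library named TRULI_d5 1 stands highest at 5.01, and the 2 named DMSO_d10 lowest at 1.96 and 2.11. In the 2 named DMSO_d10, Myo6 makes up 314 of 356 and 302 of 341 CPM of the marker sum.

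Supporting-cell markers were abundant in every library, with 12 marker genes summing to between 4586 and 14381 CPM. By label 2 of the 12 were called lower after withdrawal, against 1.06% of all genes tested, and by name none, against 0%. The 2 were Lfng, the gene behind the reporter, at -2.32 (SE 0.44, edgeR adjusted p = 0.0463) and the glutamate transporter Slc1a3 at -2.50 (SE 0.37, edgeR adjusted p = 0.0327). Both divided with the day in the deposited name, as mt-Rnr2 did. Lfng held 290 to 563 CPM in the 6 libraries named for 5 days and 21.2 to 100 CPM in the 4 named for day 10. By label this divide cannot be told apart from treatment. The summed level of 4 neuronal markers was also highest in the libraries named TRULI_d5 replicates 1 and 2 and TRULI_d10 replicate 1. It was 20.4, 17.4 and 7.68 CPM in DMSO_d5 and 85.7, 63.7 and 9.85 CPM in the libraries named TRULI_d5. It was 2.97 and 0.718 CPM in the libraries named DMSO_d10 and 48.2 and 7.32 CPM in TRULI_d10. In TRULI_d10 replicate 1, Snap25 held 37.2 CPM of this sum, while Nefl and Nefm lay below their levels in DMSO_d5 replicate 2. The part of the neuronal markers in the result was not tested. Summed macrophage markers ranged from 0.87 to 18.1 CPM over the libraries, endothelial from 0 to 2.96, mesenchymal from 11.2 to 32.9, melanocyte from 0.359 to 14.1, Schwann and glial from 22.8 to 122 and dark-cell markers from 110 to 187 CPM, and none of these genes was called.

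Few other genes of the hair bundle and none of the relatives of the members were called. Of 16 further hair-bundle genes 10 were tested at 5 days by name, 6 with a positive log2 fold change. Of the 10, 1 was called higher, against 2.05% of all genes tested. This was Clic5, a protein of the base of the stereocilia, at 1.26 (SE 0.27, edgeR adjusted p = 0.0302), with levels of 75.1, 67.3 and 83.0 CPM in DMSO_d5 and 219.9, 200.2 and 114 CPM in the libraries named TRULI_d5. By label 10 were tested at 5 days and 11 after withdrawal, and none was called. After withdrawal by name 7 were tested and none was called. Of 17 relatives of the members, such as Tmc4 to Tmc8, Lhfpl2 and Cib1, between 6 and 8 were tested in each of these comparisons and none was called. Cib3, a relative of Cib2 singled out after its values were seen, reached 39.1 CPM in TRULI_d10 replicate 1 and was listed at 0 in the library named DMSO_d10 replicate 2.

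Among 12832 other genes that passed the filter over the 10 libraries, 5 had profiles most like the mean log2(CPM + 1) of the members. They were Calb2 with r = 0.973, Xkr6 with 0.966, Dnah5 with 0.966, Ano3 with 0.965 and Cxcl14 with 0.964, and Calb2, which encodes the calcium-binding protein calretinin, is itself one of the 14 hair-cell markers. Within the members, Lhfpl5, Cib2 and Clrn1 each correlated at 0.94 with the mean of the others, and Tomt and Loxhd1 at 0.85. The value was 0.65 for Tmc1, 0.57 for Tmie, 0.28 for Cdh23 and -0.25 for Pcdh15. These are descriptions over 10 libraries that share groups and differ in depth.

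The tables also give an effective length, which weights each gene's annotated transcripts by their estimated abundance in a library and so shifts when the estimated mixture of transcripts shifts. Loxhd1 had effective lengths from 1934 to 2982 bases in the 6 libraries named for 5 days and of 3678 and 4131 bases in the 2 TRULI_d10 libraries. The lengths in the libraries named DMSO_d10 rest on 1 and 0 counts and carry no information. Cdh23 lay between 3611 and 4047 bases in the libraries named TRULI_d5, with 50 to 87 counts. The other groups were wider and enclosed these values or lay above them. Cdh23 stood at 6051, 8129 and 2144 bases in DMSO_d5, with 24, 14 and 3 counts, at 10359 and 3031 in the libraries named DMSO_d10, with 45 and 47 counts, and at 5705 and 6550 in TRULI_d10. Pcdh15 ranged from 4557 to 8640 bases, the lowest being in the library named DMSO_d10 replicate 2, where its level was highest. The length of Tmc1 stayed between 3838 and 3854 bases, that of Lhfpl5 between 1013 and 1029 and that of Cib2 between 1198 and 1214. No test was made of these lengths, since they are estimates from few reads.

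**Figure D5:**
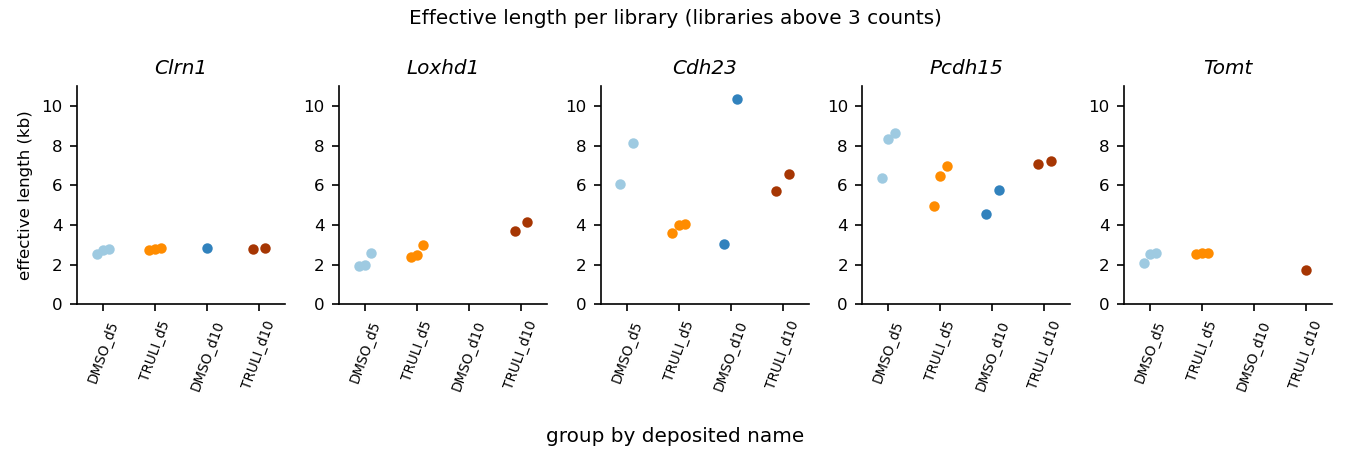
Effective length in kilobases of 5 members in each library, by deposited name, for libraries above 3 counts of the gene; points are libraries. Loxhd1 stands at 3678 and 4131 bases in TRULI_d10 and at most at 2982 in the libraries named for 5 days, whereas Clrn1 stays between 2559 and 2850.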

How the data were processed

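RNA sequencing of 10 libraries was analysed. Reads had been aligned by the authors to GRCm38 using STAR, and they deposited 1 table per library of expected counts per gene, not normalised, with effective lengths; the counting program is not given in the sources used here, and the methods and the labels name different library kits. Gene symbols and positions came from GENCODE M21 (GRCm38), which matched 48349 of 48709 rows, and promoter windows from RefSeq GRCm38.p6.

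Rounded expected counts were filtered with filterByExpr, scaled with TMM and tested with the quasi-likelihood method of edgeR 4.0.16 in R 4.3.3, on the libraries of each comparison, with Benjamini-Hochberg adjustment over all genes tested. A gene was called where the adjusted p was under 0.05 and its log2 fold change exceeded 1 in size. CPM used TMM factors over all 10 libraries, and CPM per kilobase divided these by effective length. The 3 comparisons (5 days, withdrawal, and the difference between them) were made with groups from the sample labels and again with groups from the deposited names. Alternatives were DESeq2 1.42.0, its size factors, no filter, a replicate block, all 10 libraries in one fit and leaving out each library. The fit restricted to libraries whose label and name give the same condition was chosen after seeing the data. Intervals of summed counts are exact (binomial, 95%) and, like the floor of 3 counts, cover counting error only.

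The members and lists were chosen with earlier results of these data known, and Tmc1 and Tomt are among the genes the study names for these libraries. All members are named, further genes of the lists where called, and the 5 genes with the largest Pearson r to the members' mean profile. Pairing by replicate number was checked by correlating the deviations of same-numbered libraries from their group means over 12841 genes. At 5 days by deposited name the 3 correlations were 0.332, 0.156 and 0.269. The main fit there did not pair libraries. Only the replicate block, an alternative, took the numbers, which come from the names, as pairs. No label gives this pairing, and its basis is the same expression values that were then tested. No 2 libraries agreed within sampling noise (chi-square per degree of freedom at least 15.3). On simulated counts at a dispersion of 0.1, with 4-fold changes in 200 genes, edgeR recovered 184 at 5 days and 137 after withdrawal by label, and 178 and 119 by name. Dispersion is the square of the biological coefficient of variation. In the data this coefficient was 0.488 and 0.464 by label, and 0.307 and 0.535 by name. Except at 5 days by name, the data thus varied more than the simulation, so that its recovery is too favourable. Scarce genes were not among those changed. The study's own tables of comparisons were not used.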

Additional observations from a re-analysis of the deposited data

How the results depend on the processing

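Of 73 recounts of called members 12 moved. At 5 days by name DESeq2 called 4 (3.37% of all genes were called higher), the replicate block 4 (4.1%) and the fit without a filter on low counts 5 (3.22%). Restricting either grouping at 5 days to libraries whose label and name give the same condition gave 2 (0.777%). After withdrawal by name DESeq2 called 2 (0.363%) and the fit without a filter 3 (0.788%), and for the difference of effects by name the fit without a filter called 2 (0.885%). Leaving out 1 library at a time gave 0 to 5 called members at 5 days and 0 to 3 after withdrawal by label, 0 to 3 and 0 to 0 by name, and 0 to 0 for the difference in both groupings. Without the library labelled TRULI_d5 replicate 3, which gave the 5, 8.11% of all genes were called lower. The causes were not tested.

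Of 376 recomputed fold changes of single members 312 kept their direction and side of the threshold, 28 newly passed it and 36 reversed. With the replicate block Lhfpl5 came to -1.59, Tomt to -1.48, Loxhd1 to -2.84 and Clrn1 to -1.82 at 5 days by label, and Tomt to -0.16 and Clrn1 to -0.32 after withdrawal by label. The labels' numbers showed no pairing at 5 days (correlations -0.121, 0.0493 and -0.164), and with 2 pairs the replicate numbers after withdrawal share only a number (0.192 by label, 0.159 by name); the block changed no call of a member there. Taking conditions from the names gave Tmie 0.39 and Cib2 0.69 at 5 days and Tmie 0.13, Cdh23 0.27 and Cib2 3.56 after withdrawal, and libraries alike in label and name gave Tmie 0.77 and Cib2 1.23 at 5 days. Leaving out 1 library at 5 days by label moved Tmc1 from -0.03 to 0.95, Lhfpl5 from -4.91 to 2.32, Pcdh15 from -0.03 to 1.13, Cib2 from -3.40 to 0.35, Tomt from -3.58 to 0.76, Loxhd1 from -5.76 to 0.91 and Clrn1 from -3.26 to 1.55. After withdrawal by label it moved Tmc1 from -0.65 to 1.49, Cdh23 from -0.98 to 0.49, Cib2 from -1.38 to 0.53, Tomt from -7.49 to 2.71, Loxhd1 from -0.54 to 1.78 and Clrn1 from -2.28 to 1.34. By name after withdrawal it moved Tmie from -0.27 to 0.75, Pcdh15 from -1.84 to 0.02 and Cdh23 from -0.66 to 1.03.

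With 2 libraries a group after withdrawal, leaving out 1 leaves a group of 1, which is taken to vary like the other. Tmc2 cannot be compared at this depth, and where all libraries of a group held 3 counts or fewer, as for Loxhd1, Lhfpl5, Tomt and Cib2 in the libraries named DMSO_d10, fitted fold changes are no measure of size.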
